A study of Caenorhabditis elegans with 30 samples.

Results

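The comparison concerns 3 RNA-seq libraries from worms fed bacteria that make double-stranded RNA against F25H2.5, the sequence name of ndk-1, and 3 libraries from worms fed the empty feeding vector. The members were chosen by label: libraries whose perturbation was F25H2.5, and L4440 libraries whose titles start with RM, 6 of the 30 libraries in the series. F25H2.5 animals were N2 hermaphrodites, the wild-type laboratory strain of Caenorhabditis elegans, aged 5 days and taken as whole worms, on F25H2.5 RNAi bacteria. L4440_RM animals had the same strain, sex, age and sample type and were fed bacteria with L4440, the plasmid without a worm insert. The other 9 libraries with the RM prefix came from worms of the same strain, sex and age on RNAi against F55H2.6, R04E5.10 or F26D12.1, 3 libraries each, and these enter as a shared estimate of the spread and as a further reference. The labels do not say whether replicates were separate cultures, so p-values measure the spread between these libraries, which may be technical. In whole animals, fewer cells of a type and less RNA per cell cannot be told apart.

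ndk-1 encodes a nucleoside diphosphate kinase of the NM23 family, an enzyme that moves the terminal phosphate of ATP to other nucleoside diphosphates and so renews GTP, CTP and UTP. In worms it is known for its part in Ras and ERK signalling during vulva formation, where it acts with the scaffold proteins KSR-1 and KSR-2, and for a part in cell migration and in the engulfment of dying cells, where GTP is used by dynamin and Rac. Feeding RNAi lowers a transcript through small RNAs made from the swallowed double-stranded RNA. The results below therefore go from the target and its neighbours to the Ras and engulfment genes, and on to groups with other roles.

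Levels are given as CPM, the share of a library's counts after scaling, and differences as log2 fold changes of F25H2.5 over L4440_RM with their standard errors (SE). The 6 libraries held 31835911 to 38427923 counts in 19778 to 20134 genes. Ribosomal RNA took 0.136% to 0.197% of counts in F25H2.5 and 0.164% to 0.323% in L4440_RM. Markers of intestine, muscle, neurons, germ line, sperm and oocytes were all detected. The F25H2.5 libraries stood apart from the other 12 RM libraries on the fourth principal component, which held 7.77% of the variance, at 18.9, 20.6 and 11.4 against values of at most 6.66 in all the others. L4440_RM replicate 3 and F26D12.1 replicate 3 lay apart on the third component, at -31.5 and -30.4, the lowest values of the 15 libraries.

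The target itself was low in every F25H2.5 library. ndk-1 (WBGene00009119) lies on chromosome I of build WBcel235, from 10553116 to 10553913 on the minus strand, and is protein-coding. It had 69.9, 46 and 60.6 CPM in the 3 F25H2.5 libraries, against 1319, 1239 and 1335 CPM in the 3 L4440_RM libraries. The groups lay far apart, and F25H2.5 libraries held on average 4.53% of the L4440_RM level. The log2 fold change was -4.46 ± 0.14 (SE, n = 3 each, edgeR's quasi-likelihood test, adjusted p = 3.20e-11). Against the mean of the other 3 RM RNAi groups, a comparison without any L4440 library, it was -4.30 ± 0.13 (edgeR, adjusted p = 2.09e-11). As CPM of library totals, the 3 F25H2.5 libraries had 44.6 to 67.3 CPM and the other 27 libraries of the series had 797 to 1388 CPM. The measurement matches the label of the treatment. In the reference group R04E5.10 the labelled target is ifd-1, which was looked up after its values were seen. It averaged 21.8 CPM there and 5.4 CPM in L4440_RM, so it was not lowered. The cause was not tested.

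The gene next to ndk-1 on one side, and the gene beyond it, were also lower. F25H2.6, which RefSeq calls cert-1, starts 452 bp from ndk-1 on the opposite strand. It had 84.1, 85.5 and 80.6 CPM in F25H2.5 and 186, 176 and 184 CPM in L4440_RM, with no overlap and a log2 fold change of -1.13 ± 0.06 (SE, edgeR, adjusted p = 3.78e-08). F25H2.7, 4409 bp from ndk-1 and on the same strand as F25H2.6, had 18.3, 17.2 and 16.9 CPM in F25H2.5 and 35.3, 33.4 and 38.3 CPM in L4440_RM. Its log2 fold change was -1.03 ± 0.09 (edgeR, adjusted p = 6.82e-06), and again every F25H2.5 library lay below every L4440_RM library. Both genes kept these falls against the other 3 RM RNAi groups, at -1.03 ± 0.05 and -0.98 ± 0.07.

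On the other side F25H2.4 lies 68 bp from ndk-1. It averaged 118 ± 10.0 CPM in F25H2.5 and 124 ± 11.5 CPM in L4440_RM (SD, n = 3 each) with overlapping libraries, and its log2 fold change of -0.07 ± 0.08 (SE) did not pass (edgeR, adjusted p = 0.621). Of the next genes, ubc-25, a ubiquitin-conjugating enzyme gene 9056 bp away, rose by 0.24 ± 0.06 (edgeR, adjusted p = 0.0158). The other 4 tested neighbours, tli-1, snx-27, pas-5 and rla-0, had log2 fold changes of 0.09 to 0.20 that did not pass. Because strand was not marked in library preparation, reads from overlapping transcripts of neighbouring genes cannot be told apart in these counts. Sequence that the feeding insert may share with these genes was not examined.

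**Figure D1:**
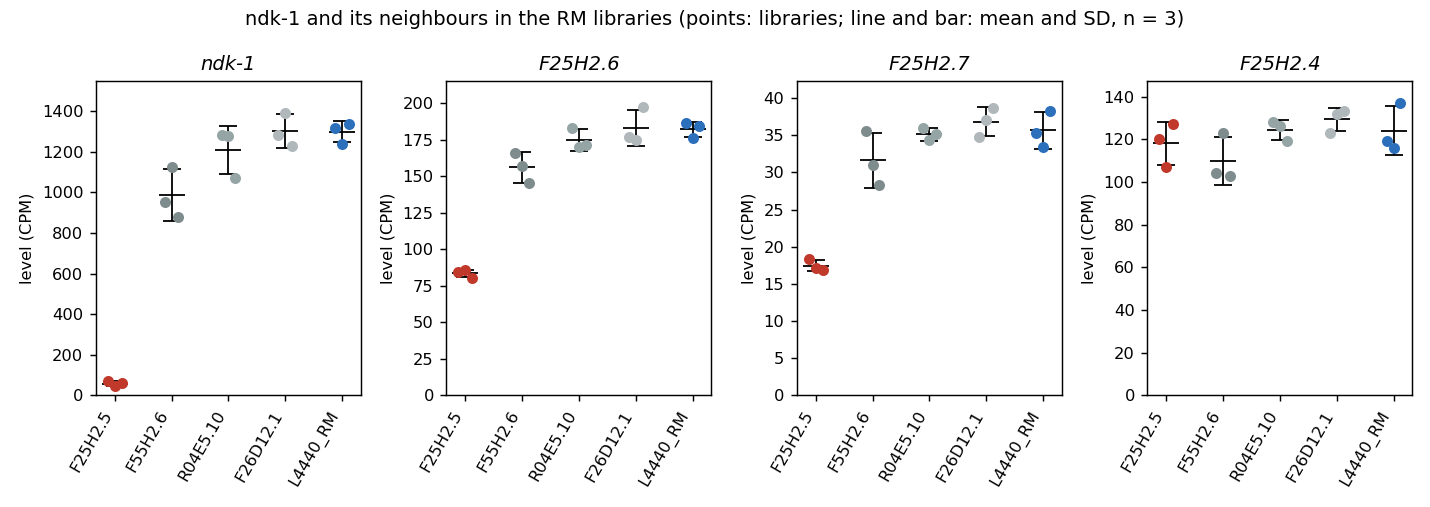
Levels in CPM (linear axes) of ndk-1 and 3 neighbouring genes in the 15 RM libraries, by group, with points for libraries and a line and bar for the mean and SD (n = 3). ndk-1, F25H2.6 and F25H2.7 are lowest in all 3 F25H2.5 libraries, while F25H2.4 overlaps between groups.

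Beyond the target, changes were many and mostly small. Of 15795 genes that passed the filter on low counts, 831 rose (5.26%) and 535 fell (3.39%) in F25H2.5 at an adjusted p under 0.05. Rises had a median log2 fold change of 0.37 and falls of -0.47, and 42 rises and 90 falls exceeded a 2-fold change. The median over all genes tested was -0.00. Of the 1366 genes called, 1361 had groups that did not overlap, so a lack of overlap goes with nearly every call. Against the other 3 RM RNAi groups, 1443 genes were higher (9.14%) and 942 lower (5.96%), and scaling by library totals turned this split to 889 higher and 1455 lower. Both comparisons use the same 3 F25H2.5 libraries, so they are not independent of each other.

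The number of calls depended on each library. It was 632, 431 and 833 without F25H2.5 replicates 1, 2 and 3, and 641, 842 and 754 without L4440_RM replicates 1, 2 and 3. Without L4440_RM replicate 3 and F26D12.1 replicate 3 together, 530 rose and 660 fell. Without replicate 3 of every group, 319 rose and 429 fell, so the excess of rises did not hold there. Replicate 1 of both groups shared sequencing lane 1 and replicate 2 shared lane 2, while replicate 3 ran in lane 6 for F25H2.5 and lane 5 for L4440_RM. A fit with lane as a term had 3 residual degrees of freedom and called 16 genes, with 3083 genes at an unadjusted p under 0.05. Replicate 3 of each of the 2 groups was the only RM library in its lane. The lane terms therefore took these libraries out of the comparison, which rested on replicates 1 and 2.

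Those 16 genes were ndk-1, both neighbours F25H2.6 and F25H2.7, then icmt-1, F33H2.3, cdk-11.2, csb-1 and C49F5.6, which were higher in F25H2.5, and snpc-1.3, fog-3, mppa-1, C47E12.3, cpr-5, ZC434.8, ttc-37 and a pseudogene, WBGene00007165, which were lower. Of these, cpr-5, ZC434.8 and ttc-37 are named for this fit after their values were seen.

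The largest rise was that of icmt-1, whose product methylates the prenylated cysteine at the end of proteins such as Ras. It had 8.54, 17 and 4.53 CPM in F25H2.5 and 1.7, 2.1 and 2.56 CPM in L4440_RM. The 3 F25H2.5 libraries spread widely and still lay above every L4440_RM library, and the log2 fold change was 2.24 ± 0.37 (SE, edgeR, adjusted p = 0.00369). It was 1.91 ± 0.27 higher than in the other 3 RM RNAi groups, where group means were 1.94 to 3.44 CPM. In a fit of the 6 libraries alone it did not pass.

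Several rises passed both against L4440_RM and against the other RNAi groups. npr-41, a neuropeptide receptor gene, had 4.79, 5.7 and 5.48 CPM in F25H2.5 and 2.29, 2.51 and 2.24 CPM in L4440_RM, a rise of 1.18 ± 0.14 (edgeR, adjusted p = 2.28e-04). C36C9.10, annotated as a non-coding RNA on chromosome X, had 36.5, 45.7 and 37 CPM in F25H2.5 and 17.6, 19.4 and 16.6 CPM in L4440_RM (1.15 ± 0.13). gpa-4, a G protein alpha subunit gene of sensory neurons, had 9.89, 9.89 and 8.27 CPM in F25H2.5 against 5.19, 4.76 and 4.24 CPM in L4440_RM (0.98 ± 0.13). In these genes the lowest F25H2.5 library exceeded the highest L4440_RM library, and the log2 fold changes against the other RNAi groups were 1.08, 1.02 and 0.74, all past the threshold. F33H2.3 rose at a higher level, with 157, 174 and 161 CPM in F25H2.5 and 83.1, 92.5 and 93 CPM in L4440_RM (0.87 ± 0.07, edgeR, adjusted p = 3.16e-06).

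Other large rises, C42D4.19 apart, did not pass against the other RNAi groups. C06E4.3 had 2.86, 4.41 and 2.76 CPM in F25H2.5 and 1.33, 1.44 and 0.755 CPM in L4440_RM, a rise of 1.5 ± 0.28 (edgeR, adjusted p = 0.00488). Its mean was 3.71 CPM with F55H2.6 RNAi and 9.6 CPM with R04E5.10 RNAi, and the difference from the 3 groups was -0.13 ± 0.21 (edgeR, adjusted p = 0.744). F20G2.1 (1.35 ± 0.26), the F-box gene fbxb-10 (1.25 ± 0.32) and unc-39, a homeobox gene (1.16 ± 0.24), showed the same arrangement, with differences of -0.31, 0.10 and 0.02 from the other RNAi groups that did not pass. tab-1 (1.17 ± 0.24), another homeobox gene, C08F1.10 (1.18 ± 0.26), C05G5.5 (1.14 ± 0.25) and txt-2 (1.12 ± 0.27) also missed the threshold there, at 0.34, 0.35, 0.01 and 0.38. C42D4.19 rose by 1.11 ± 0.27 and was also higher than in the other RNAi groups, by 1.47 ± 0.21.

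Among the large falls other than the target were these genes of low level. hil-8, a linker histone H1-like gene, had 0.346, 0.324 and 0.534 CPM in F25H2.5 and 1.7, 1.63 and 2 CPM in L4440_RM, a log2 fold change of -2.13 ± 0.25 (edgeR, adjusted p = 2.22e-04). fog-3, a Tob-family gene needed for germ cells to become sperm, had 1.47, 0.972 and 1.43 CPM in F25H2.5 and 4.23, 3.79 and 3.22 CPM in L4440_RM (-1.53 ± 0.18). snpc-1.3, a subunit of the snRNA-activating complex that acts in piRNA transcription in the male germ line, had 6.52, 6.26 and 6.92 CPM in F25H2.5 and 15.2, 14.3 and 12.4 CPM in L4440_RM (-1.09 ± 0.12). In all 3 genes every F25H2.5 library lay below every L4440_RM library, and the differences from the other RNAi groups were -1.88, -1.64 and -1.39. With the 6 L4440 libraries of both prefixes as control, fog-3 and snpc-1.3 did not pass. In F55H2.6 RNAi the group means of these last genes were 7.74 CPM for fog-3 and 32.9 CPM for snpc-1.3, above L4440_RM.

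C07G1.7 had 3.2, 4.12 and 3.82 CPM in F25H2.5 and 7.79, 9.06 and 10.9 CPM in L4440_RM (-1.31 ± 0.18, edgeR, adjusted p = 5.78e-04), and averaged 68.8 CPM with F55H2.6 RNAi. The remaining large falls were nspd-10, cdh-7, a cadherin gene, fipr-1, moa-1, C30G12.1, C04G6.6 and C06A1.3, with log2 fold changes from -1.59 to -1.17, and msp-57 and msp-36, described with the sperm genes. nspd-10 did not pass without F25H2.5 replicate 2, and fipr-1 was not lower than in the other RNAi groups by the test (-0.87 ± 0.32, edgeR, adjusted p = 0.0846). moa-1, with an adjusted p of 0.0466 in edgeR, passed in 6 of 17 other fits. C47E12.3 fell by less at a higher level, with 73.8, 70.3 and 76.5 CPM in F25H2.5 and 116, 105 and 114 CPM in L4440_RM (-0.60 ± 0.06).

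**Figure D2:**
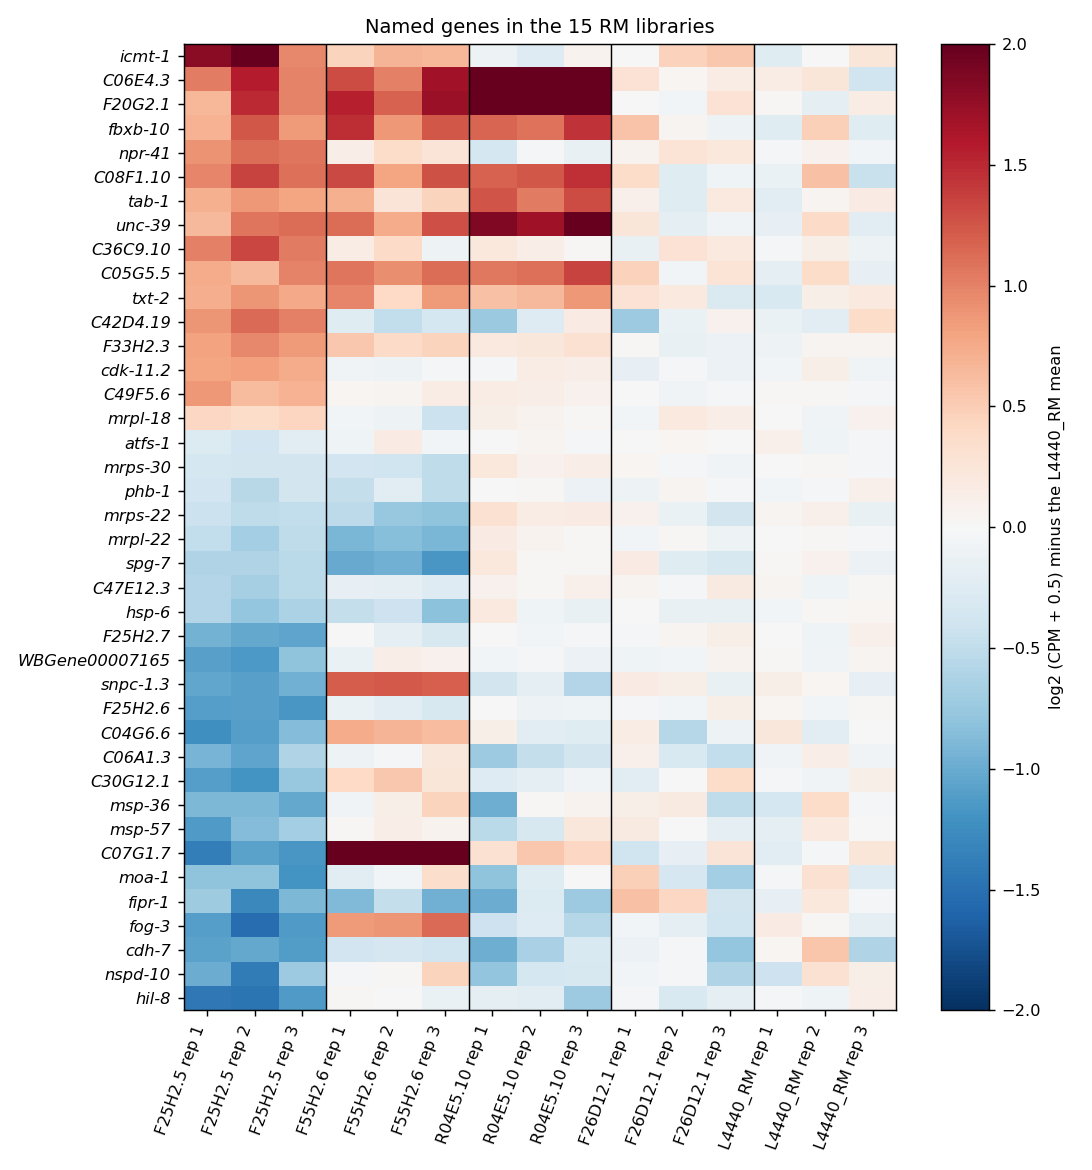
Level of 40 named genes in the 15 RM libraries, chosen as the largest and clearest changes and the named members of the mitochondrial stress and ribosome lists, as log2 of CPM plus 0.5 minus the L4440_RM mean, on a colour scale that ends at -2 and 2. npr-41, cdk-11.2 and F25H2.6 stand out in the 3 F25H2.5 libraries, C06E4.3, F20G2.1 and unc-39 are also high with R04E5.10 RNAi, and hsp-6, spg-7 and mrpl-22 are also low with F55H2.6 RNAi.

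Ras and ERK signalling is the pathway in which ndk-1 is best known. Of 40 tested genes of that pathway, 2 rose and 3 fell, with a median log2 fold change of -0.04. Over all genes tested 5.26% rose and 3.39% fell. rom-1, a rhomboid protease that acts on the EGF ligand, had 36.9, 39.1 and 37.3 CPM in F25H2.5 and 26.4, 25.5 and 27.9 CPM in L4440_RM, a rise of 0.51 ± 0.08 (edgeR, adjusted p = 0.0014) with no overlap. The adaptor gene sem-5 rose by 0.24 ± 0.05. The transcription factor gene eor-1 fell by 0.29, the phosphatase gene ptp-2 by 0.22 and the ERK gene mpk-1 by 0.21 on the log2 scale (SE 0.06, 0.05 and 0.06). mpk-1 averaged 161 ± 5.76 CPM in F25H2.5 and 185 ± 1.62 CPM in L4440_RM (SD, n = 3 each), and it did not pass when any of the 6 libraries was left out. sem-5 and ptp-2 did not pass without F25H2.5 replicate 2, nor sem-5 without L4440_RM replicate 3 or ptp-2 without L4440_RM replicate 1, and eor-1 did not pass without F25H2.5 replicate 2. The Ras gene let-60 (-0.06 ± 0.05), the Raf gene lin-45 (-0.16 ± 0.09), the MEK gene mek-2 (-0.03 ± 0.06) and the scaffold genes ksr-1 (-0.16 ± 0.08) and ksr-2 (-0.20 ± 0.12) did not pass.

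Of 25 tested genes of engulfment, Rac and dynamin, 6 rose, 19 did not pass and 0 fell in edgeR, with 0 falls also in DESeq2 and 3 lower at an unadjusted p under 0.05. The median log2 fold change was 0.10. piki-1, a phosphoinositide 3-kinase of the phagosome, had 76.3, 77.4 and 72.4 CPM in F25H2.5 and 55.8, 56.3 and 57.1 CPM in L4440_RM, a rise of 0.42 ± 0.06 (edgeR, adjusted p = 0.00122). psr-1, the phosphatidylserine receptor, rose by 0.35 ± 0.06 (edgeR, adjusted p = 0.00199). In both genes all F25H2.5 libraries lay above all L4440_RM libraries, in tight groups. The Rac-like GTPase gene mig-2 (0.29 ± 0.06), the integrin gene ina-1 (0.32), the dynamin gene dyn-1 (0.28 ± 0.07) and rab-14 of phagosome maturation (0.26 ± 0.06) also rose. The Rac gene ced-10 did not pass (0.10 ± 0.05). Among the genes that rose, piki-1, mig-2, rab-14 and dyn-1 lie on chromosome X, where 9.73% of tested genes rose. The share of rises over all genes tested was 5.26%. The count of rises was 3 to 6 when 1 library was left out, and dyn-1 did not pass without F25H2.5 replicate 1 or 2 or without L4440_RM replicate 1 or 2, nor rab-14 without F25H2.5 replicate 2.

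Other enzymes act on the same nucleotides. Of 33 tested genes of nucleotide metabolism, ndk-1 and the cytidine deaminase gene cdd-1 fell and 0 rose in edgeR, with 5 higher at an unadjusted p under 0.05. The median was -0.01, and of all genes tested 3.39% fell and 5.26% rose. cdd-1 had 2.51, 2.63 and 2.7 CPM in F25H2.5 and 4.55, 4.29 and 4.47 CPM in L4440_RM, a log2 fold change of -0.76 ± 0.15 (edgeR, adjusted p = 0.00688), with no overlap. rnr-1, the large subunit of ribonucleotide reductase, had 675, 635 and 618 CPM in F25H2.5 and 629, 637 and 600 CPM in L4440_RM (0.05 ± 0.08) and did not pass.

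Among nuclear genes for mitochondrial proteins, falls differed in number between lists. Of 17 genes of the mitochondrial unfolded protein response, the transcriptional response to misfolding inside the organelle, 6 fell and 0 rose in edgeR, as in DESeq2 where 7 fell, with 0 higher at an unadjusted p under 0.05. The median was -0.13, and of all genes tested 3.39% fell and 5.26% rose. hsp-6, the mitochondrial HSP70 chaperone, had 852, 747 and 825 CPM in F25H2.5 and 1233, 1293 and 1311 CPM in L4440_RM, a log2 fold change of -0.66 ± 0.11 (edgeR, adjusted p = 0.00154). The protease gene spg-7 had 93.8, 94.2 and 98.3 CPM in F25H2.5 and 146, 152 and 132 CPM in L4440_RM (-0.58 ± 0.10). Neither gene overlapped between groups. Against the other RNAi groups hsp-6 was lower (-0.44 ± 0.09) and spg-7 did not pass (-0.23 ± 0.09, edgeR, adjusted p = 0.0883).

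The prohibitin gene phb-1 (-0.43 ± 0.08), the protease genes lonp-1 (-0.28) and ymel-1 (-0.20) and atfs-1, the transcription factor that drives this response (-0.29 ± 0.07), fell as well. The chaperonin gene hsp-60 had 280, 268 and 277 CPM in F25H2.5 and 371, 409 and 345 CPM in L4440_RM without overlap, and missed the threshold (-0.45 ± 0.14, edgeR, adjusted p = 0.0589). Leaving out 1 library gave 3 to 5 falls, and atfs-1 did not pass without F25H2.5 replicate 1 or 2 or without L4440_RM replicate 1. The mean of hsp-6 was 867 CPM and of spg-7 69.4 CPM with F55H2.6 RNAi, so in that treatment too they were below L4440_RM.

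Of 69 genes of the mitochondrial ribosome, which translates the organelle's own messages, 10 fell and 1 rose, with a median of -0.07. Among all genes tested 3.39% fell and 5.26% rose. mrpl-22 had 23.6, 20.6 and 23.2 CPM in F25H2.5 and 33.6, 33.9 and 32.4 CPM in L4440_RM, a log2 fold change of -0.57 ± 0.07 (edgeR, adjusted p = 3.56e-04). mrps-30 had 72.4, 71.7 and 71.8 CPM in F25H2.5 and 93.6, 93.8 and 90.5 CPM in L4440_RM (-0.36 ± 0.05), and mrps-22 fell by 0.48 on the log2 scale. mrpl-18 went the other way, with 89.9, 87.6 and 91.6 CPM in F25H2.5 and 66.8, 64 and 72 CPM in L4440_RM (0.41 ± 0.09). Leaving out 1 library gave 2 to 6 falls, and mrps-22 did not pass without F25H2.5 replicate 2. With F55H2.6 RNAi the means of mrpl-22, mrps-30 and mrps-22 were 17.7, 68.6 and 36.4 CPM, below the F25H2.5 means of 22.5, 72 and 42.5 CPM.

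Genes of aminoacyl-tRNA synthetases and translation factors, which charge tRNAs and run the ribosome, fell in 14 of 73 cases and rose in 2, with a median of -0.08. Among all genes tested 3.39% fell and 5.26% rose. vars-1 had 55.2, 55.6 and 55.9 CPM in F25H2.5 and 73.7, 73.3 and 71.6 CPM in L4440_RM (-0.39 ± 0.05, edgeR, adjusted p = 5.74e-04). aars-1 (-0.41 ± 0.07), gars-1 (-0.41) and sars-2 (-0.38 ± 0.07) fell to a like extent, while the cap-binding factor genes ife-2 (0.42 ± 0.07) and ife-4 (0.39) rose. Falls numbered 4 to 12 with 1 library left out. With F55H2.6 RNAi the means of vars-1, aars-1 and sars-2 were 57.4, 33.2 and 58.2 CPM, near the F25H2.5 means of 55.6, 30.8 and 54.8 CPM. Cytosolic ribosomal protein genes had 1 rise and 1 fall among 80, with a median of -0.03. With the 6 libraries alone the falls were 23 for the synthetases and translation factors and 15 for the cytosolic ribosome, and with all 6 L4440 libraries as control 32 and 28. The difference between the lists was not tested.

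Other genes for mitochondrial proteins were examined after their values had been seen, because they ranked high among the falls. mppa-1, the alpha subunit of the peptidase that removes import signals, had 14.4, 15 and 15.8 CPM in F25H2.5 and 27.3, 30.8 and 25.2 CPM in L4440_RM (-0.88 ± 0.10, edgeR, adjusted p = 2.23e-04). The mitochondrial elongation factor genes tufm-1 (-0.60 ± 0.07) and gfm-1 (-0.50 ± 0.07) fell without overlap. With F55H2.6 RNAi the means of mppa-1, tufm-1 and gfm-1 were 13.6, 221 and 89.9 CPM. The F25H2.5 means were 15.1, 216 and 86.1 CPM, so these genes were low in both treatments. clu-1, the gene targeted by F55H2.6 RNAi and named for its role in the distribution of mitochondria, had 173, 155 and 179 CPM in F25H2.5 and 278, 297 and 233 CPM in L4440_RM, a log2 fold change of -0.67 ± 0.10 (edgeR, adjusted p = 0.00134).

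Respiratory genes had calls in both directions. Of 68 nuclear genes of oxidative phosphorylation, 2 rose and 3 fell, with a median of 0.00, where 5.26% of all genes tested rose and 3.39% fell. The complex II genes sdha-2 (-0.43 ± 0.08) and mev-1 (-0.26 ± 0.06) fell, as did ucr-2.3 of complex III (-0.31 ± 0.08), while the complex I gene gas-1 had 154, 133 and 132 CPM in F25H2.5 and 91.2, 111 and 85.6 CPM in L4440_RM (0.54 ± 0.14). gas-1 and mev-1 did not pass without F25H2.5 replicate 2, and gas-1 also not without F25H2.5 replicate 1 or L4440_RM replicates 1 or 3. suca-1, a subunit of succinyl-CoA synthetase, rose by 0.59 ± 0.10, whereas dld-1, the dehydrogenase shared by the pyruvate and oxoglutarate complexes, fell by 0.47 on the log2 scale, as did the thiolase gene kat-1 by 0.45. Against the other RNAi groups sdha-2, mev-1, ucr-2.3, dld-1 and kat-1 did not pass, with log2 fold changes of -0.13, -0.07, -0.09, -0.04 and -0.09. These groups differed among themselves. In each of these genes the F55H2.6 mean lay below the F25H2.5 mean, and the R04E5.10 and F26D12.1 means lay above it. dld-1 averaged 189 CPM in F25H2.5, 118 CPM with F55H2.6 RNAi, 248 CPM with R04E5.10 RNAi and 249 CPM with F26D12.1 RNAi.

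The mitochondrial genome's own 12 protein-coding genes had 1 fall, 11 log2 fold changes below 0 and a median of -0.17. Against the other RNAi groups their median was 0.07, with 0 rises and 0 falls. Mitochondrial genes took 0.808% to 0.931% of counts in F25H2.5, 0.966% to 1.08% in L4440_RM and 0.625% to 0.834% in F55H2.6. The trx-2 gene of mitochondrial thioredoxin had 45.8, 49.3 and 47.8 CPM in F25H2.5 and 63.4, 61.1 and 64.2 CPM in L4440_RM (-0.40 ± 0.08, edgeR, adjusted p = 0.00547).

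**Figure D3:**
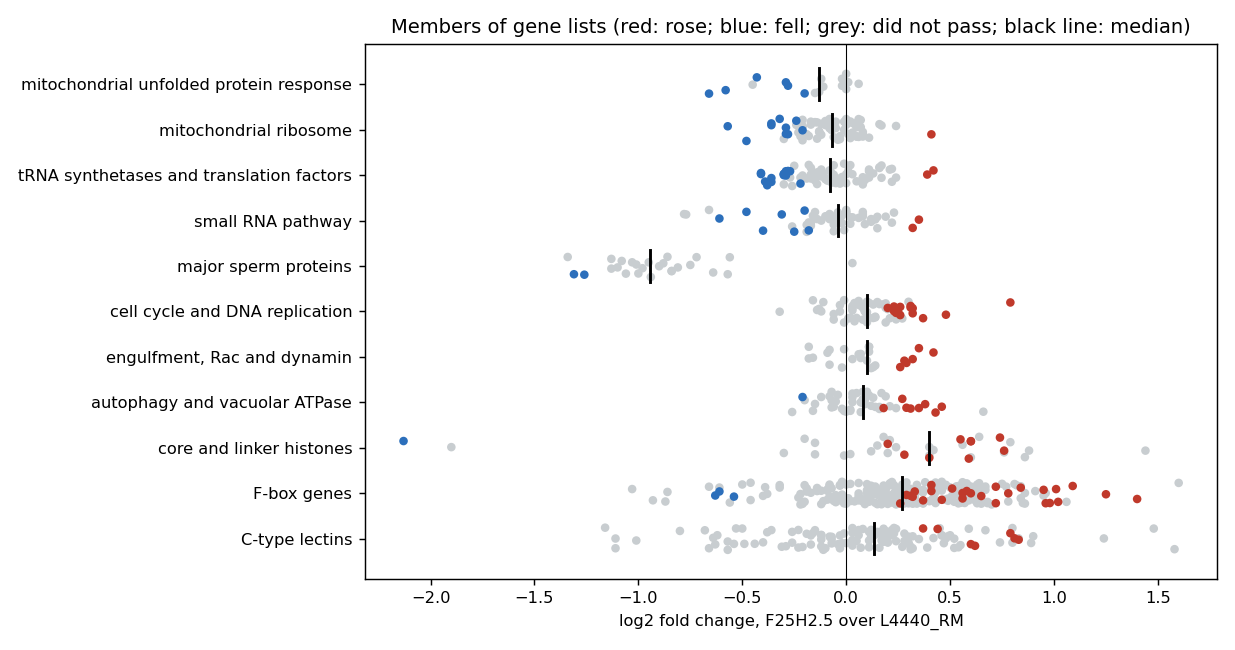
Log2 fold change, F25H2.5 over L4440_RM, of each tested member of 11 gene lists, with genes that rose in red, genes that fell in blue, genes that did not pass in grey and the median as a black line. The called members are 10 falls and 1 rise for the mitochondrial ribosome, 14 falls and 2 rises for tRNA synthetases and translation factors, 15 rises for the cell cycle and 27 rises and 3 falls for F-box genes.

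Of 65 tested genes of the cell cycle and DNA replication, 15 rose and 53 had log2 fold changes above 0, with a median of 0.10. None fell in edgeR or DESeq2, and 2 were lower at an unadjusted p under 0.05. Rises made up 5.26% and falls 3.39% of all genes tested. cdk-11.2, a cyclin-dependent kinase gene on chromosome X, had 74.3, 75.8 and 71.3 CPM in F25H2.5 and 41.2, 46.2 and 40.7 CPM in L4440_RM, a rise of 0.79 ± 0.07 (edgeR, adjusted p = 1.11e-05). The other 3 RM RNAi groups averaged 39.8 to 45.5 CPM, and cdk-11.2 was 0.82 ± 0.05 higher in F25H2.5 than in these groups (edgeR, adjusted p = 2.46e-07).

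The mitotic cyclin gene cyb-2.1 (0.37 ± 0.07), the replication protein gene rpa-2 (0.32 ± 0.07), the kinase gene cdk-1 (0.31), the licensing factor gene cdt-1 (0.23 ± 0.05) and the helicase genes mcm-5 (0.24) and mcm-6 (0.23) rose by less. Leaving out 1 library gave 4 to 7 rises in this list. rpa-2 and cdt-1 did not pass without F25H2.5 replicate 2 or L4440_RM replicate 1, nor cdt-1 without L4440_RM replicate 3. The list's summed level was 15251 to 15491 CPM in F25H2.5 and 13869 to 14432 CPM in L4440_RM. Histone genes, whose near-identical copies share reads, rose in 9 of 35 cases, among them hil-2 (0.59 ± 0.12) and hil-3 (0.74 ± 0.16), and fell in 1, hil-8, described above. The shares over all genes tested were 5.26% for rises and 3.39% for falls. Against the other RNAi groups hil-2 (0.05 ± 0.09) and hil-3 (-0.02 ± 0.13) did not pass, and leaving out 1 library gave 2 to 7 histone rises, 2 of them without F25H2.5 replicate 2.

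F-box genes, which encode substrate receptors of ubiquitin ligases and form a large family in this worm, rose in 27 of 255 cases and fell in 3, with a median of 0.27. The shares over all genes tested were 5.26% for rises and 3.39% for falls. fbxa-95 had 31.6, 32.3 and 30.9 CPM in F25H2.5 and 20.3, 19.6 and 22.4 CPM in L4440_RM (0.60 ± 0.08, edgeR, adjusted p = 3.53e-04). fbxc-50 rose by 0.41 ± 0.07. fbxa-106 fell, with 11.3, 10.5 and 11.9 CPM in F25H2.5 and 17.3, 16.7 and 17.4 CPM in L4440_RM (-0.61 ± 0.08), and so did fbxc-45 (-0.54 ± 0.09). None of these groups overlapped. Against the other RNAi groups 19 F-box genes were higher and 10 lower, with a median of -0.05, and leaving out 1 library gave 5 to 27 rises against L4440_RM, 11 of them without L4440_RM replicate 3.

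Lists of protein degradation and of endoplasmic reticulum stress had the following calls, where 5.26% of all genes tested rose and 3.39% fell. Of 33 proteasome genes, 2 rose and 1 fell. Of 49 genes of autophagy and the vacuolar ATPase, 8 rose and 1 fell, with a median of 0.08. lgg-1, the Atg8 homolog, had 524, 566 and 521 CPM in F25H2.5 and 442, 429 and 427 CPM in L4440_RM (0.31 ± 0.06, edgeR, adjusted p = 0.00544), and atg-16.2 (0.38 ± 0.07) and epg-7 (0.35 ± 0.07) rose too. Of 23 genes of endoplasmic reticulum stress, 5 rose and 0 fell in edgeR or DESeq2, with 0 lower at an unadjusted p under 0.05. The sensor kinase gene pek-1 rose by 0.45 ± 0.09 (edgeR, adjusted p = 0.00619), without overlap between the groups. Leaving out 1 library gave 3 to 5 rises in the autophagy list and 1 to 5 in the endoplasmic reticulum list, whose other members that rose were pdi-6, cup-2, dnj-7 and sel-1.

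Genes of the small RNA pathways, some of which act in feeding RNAi, fell in 7 of 55 cases and rose in 2. Among all genes tested 3.39% fell and 5.26% rose. sid-1, the channel for imported double-stranded RNA, averaged 79.1 ± 6.31 CPM in F25H2.5 and 111 ± 7.84 CPM in L4440_RM (SD, n = 3 each), a log2 fold change of -0.48 ± 0.08 (SE, edgeR, adjusted p = 0.00185). The Argonaute gene ppw-2 had 59.1, 54.5 and 56.9 CPM in F25H2.5 and 84.5, 82.8 and 93.5 CPM in L4440_RM (-0.61 ± 0.11), and rde-11, a factor of exogenous RNAi, fell by 0.40 on the log2 scale. csr-1 (-0.31), ppw-1 (-0.25), dcr-1 (-0.20) and drh-1 (-0.18) fell by less. sid-1, ppw-2 and rde-11 were also lower than in the other RNAi groups, at -0.29, -0.58 and -0.30. alg-2 and sid-5 rose, by 0.32 and 0.35, and the list had 3 to 5 falls with 1 library left out.

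Of 128 C-type lectin genes, a family with roles in defence, 7 rose, a share close to the 5.26% over all genes, and 0 fell in edgeR, with 1 lower in DESeq2 and 6 lower at an unadjusted p under 0.05, and the median was 0.14. clec-41 had 617, 688 and 583 CPM in F25H2.5 and 507, 496 and 386 CPM in L4440_RM (0.44 ± 0.09). The lysozyme gene lys-7 had 3129, 3606 and 2959 CPM in F25H2.5 and 1970, 1903 and 1813 CPM in L4440_RM, a rise of 0.77 ± 0.15 (edgeR, adjusted p = 0.00598) with a gap between the groups. Its mean was 3137 CPM with F55H2.6 RNAi, 2870 CPM with R04E5.10 RNAi and 1678 CPM with F26D12.1 RNAi. Among 36 lysozyme and saposin-like genes, spp-2 and spp-8 rose with lys-7 and spp-4 fell, and neither spp gene that rose was higher than in the other RNAi groups. clec-41 did not pass without F25H2.5 replicate 2, and leaving out 1 library gave 1 to 5 rises of C-type lectin genes.

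The number of sperm genes that passed depended on the libraries fitted, and of all genes tested 3.39% fell. Of 26 major sperm protein genes, which share reads between near-identical copies, 25 had log2 fold changes below 0, 2 fell and the median was -0.95. Their summed level was 18.6 to 22.4 CPM in F25H2.5 and 30.7 to 48.8 CPM in L4440_RM. msp-57 had 0.49, 0.681 and 0.844 CPM in F25H2.5 and 1.38, 1.97 and 1.68 CPM in L4440_RM (-1.31 ± 0.27, edgeR, adjusted p = 0.00786), and msp-36 fell by 1.26 on the log2 scale. Of 33 other sperm genes 3 fell, spe-9, spe-12 and spe-41, with a median of -0.55 and a summed level of 193 to 203 CPM in F25H2.5 and 225 to 235 CPM in L4440_RM. spe-41 had 2.65, 2.95 and 3.18 CPM in F25H2.5 and 3.88, 3.89 and 4.24 CPM in L4440_RM, and its adjusted p of 0.0494 in edgeR passed in 2 of 17 other fits. Major sperm protein genes had 1 to 3 falls, and other sperm genes 0 to 2, when 1 library was left out. With the 6 libraries alone the falls were 17 and 10, and in DESeq2 5 and 4.

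Of 41 genes of germline proliferation and meiosis, 4 fell, where 3.39% of all genes tested fell and 5.26% rose. The PUF family regulator fbf-2 had 11.7, 11.4 and 10.9 CPM in F25H2.5 and 14.8, 15.1 and 15.4 CPM in L4440_RM (-0.42 ± 0.08, edgeR, adjusted p = 0.00381). The crossover and synapsis genes msh-5, syp-1 and cosa-1 fell by 0.20 to 0.29 on the log2 scale. Leaving out 1 library gave 2 to 3 falls in this list, and leaving out replicate 3 of every group gave 0. syp-1 and cosa-1 passed in 5 and 7 of 17 other fits, and the cosa-1 groups overlapped. Genes of oocytes, eggshell and early embryo had 1 rise among 38, with a median of 0.02 and a summed level of 31798 to 33253 CPM in F25H2.5 and 30264 to 33031 CPM in L4440_RM. The vitellogenin genes, which share reads and encode yolk proteins, had 2 falls of 6, vit-3 and vit-4, and neither passed against the other RNAi groups. With 1 library left out 0 to 1 of them fell, and vit-3 passed in 6 of 17 other fits.

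Collagen and muscle genes had medians below 0. The median over 122 tested col genes was -0.99, with 1 fall, and the summed level was 2162 to 2897 CPM in F25H2.5 and 2985 to 4179 CPM in L4440_RM. col-10 shows the spread behind this, with 2.57, 2.69 and 1.91 CPM in F25H2.5 and 6.52, 17.4 and 1.13 CPM in L4440_RM. Among 42 muscle genes the median was -0.37, with 36 below 0 and 2 falls, the myosin genes myo-1 (-0.74 ± 0.19) and myo-2 (-0.66 ± 0.17). Muscle falls numbered 0 to 4 with 1 library left out, 6 with the replicate block, 11 in DESeq2, 17 with all 30 libraries and 21 with the 6 libraries alone. The summed muscle level was 4328 to 4810 CPM in F25H2.5 and 4962 to 5676 CPM in L4440_RM. Their part in the other results was not tested. Intestinal markers had a median of -0.10 with 1 fall of 32, and neuronal markers a median of -0.04 with 3 falls of 91, bbs-5, osm-3 and dyf-4. Over all genes tested 3.39% fell. Neuronal falls numbered 0 to 2 with 1 library left out, and osm-3 and dyf-4 passed in 8 and 7 of 17 other fits.

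Chromosome X held more of the rises and fewer of the falls than the autosomes. Of 2210 tested genes on X, 215 rose (9.73%) and 28 fell (1.27%), whereas of 13459 autosomal genes 614 rose (4.56%) and 501 fell (3.72%). The 5 autosomes ranged from 3.43% to 5.27% for rises and from 2.99% to 4.42% for falls. The split by chromosome was chosen after many of the smallest p-values had been seen to lie on X. Against the other RNAi groups 13.5% of X genes were higher and 2.81% lower, and 8.47% of autosomal genes were higher and 6.46% lower. These are counts of called genes, and the median log2 fold change was 0.04 on X and -0.01 on the autosomes.

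**Figure D4:**
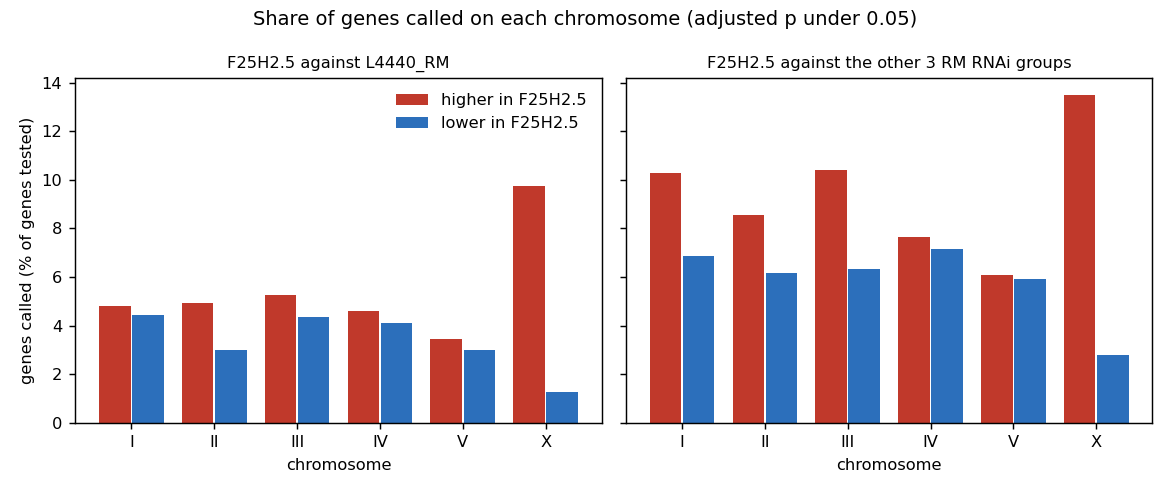
Percent of tested genes higher (red) or lower (blue) in F25H2.5 on each nuclear chromosome, against L4440_RM on the left and against the other 3 RM RNAi groups on the right. Chromosome X has the highest share of rises, 9.73% and 13.5%, and the lowest share of falls, 1.27% and 2.81%.

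The excess on X lay among genes of middle and high level. In 5 equal classes of all tested genes by mean level over the 6 libraries, 26.3% of X genes and 7.03% of autosomal genes rose between 20.1 and 88.5 CPM, and 17.8% and 8.46% above 88.5 CPM. Below 3.38 CPM the shares were within 1 percentage point of each other in both classes. As a whole-chromosome shift per library, the median of X genes minus that of autosomal genes on the log2 scale was 0.06, 0.09 and 0.02 in F25H2.5 and -0.02, 0.07 and -0.05 in L4440_RM, so the groups overlapped, and F55H2.6 replicate 3 reached 0.21. The share of rises was higher on X than on the autosomes in each of the 17 other fits. Leaving out 1 library gave 94 to 169 rises and 4 to 37 falls on X, and without L4440_RM replicate 3 and F26D12.1 replicate 3 there were 129 rises and 90 falls, the falls being 4.01% on X and 4.14% on the autosomes.

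**Figure D5:**
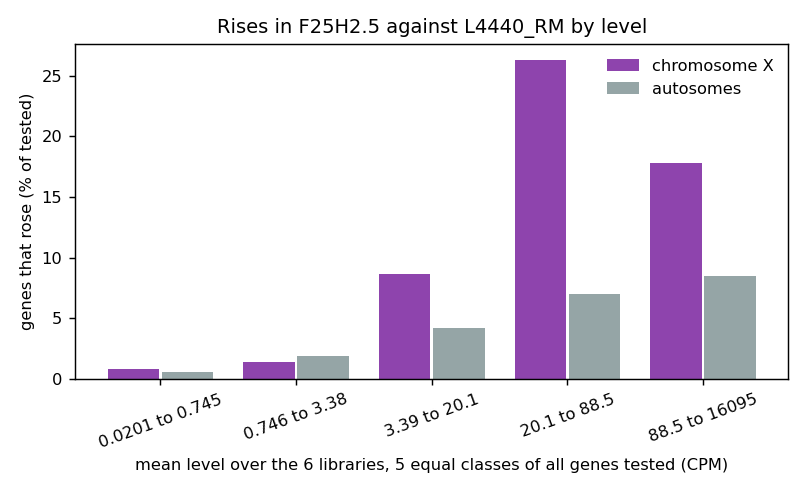
Percent of tested genes that rose in F25H2.5 against L4440_RM on chromosome X (purple) and on the autosomes (grey), in 5 equal classes of all tested genes by mean CPM over the 6 libraries. The gap is widest between 20.1 and 88.5 CPM, at 26.3% on X and 7.03% on the autosomes.

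Rises on X took in genes with many roles. C49F5.6 rose by 0.74 ± 0.06 (SE, edgeR, adjusted p = 8.69e-06). snrp-40.1, a spliceosome gene, had 80.5, 90.8 and 73.3 CPM in F25H2.5 and 47.1, 54.3 and 44.4 CPM in L4440_RM (0.75 ± 0.10). In both genes every F25H2.5 library lay above every L4440_RM library, and both were higher than in the other RNAi groups, by 0.68 and 0.71. The following were picked after their values were seen: csb-1, a homolog of the repair factor CSB (0.70 ± 0.08), lin-15B, a regulator of germline genes in the soma (0.58 ± 0.08), mdt-1.2, a Mediator subunit gene (0.67 ± 0.08), and sdc-1, a gene of sex determination and dosage compensation (0.50 ± 0.06). sdc-1 had 57.5, 57.3 and 54.8 CPM in F25H2.5 and 40.1, 40.6 and 38.8 CPM in L4440_RM.

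Pseudogenes, of which 571 passed the filter, were called unevenly as well. Among them 54 fell (9.46%) and 4 rose (0.701%), against 476 falls (3.18%) and 823 rises (5.5%) among 14956 protein-coding genes. Compared with the other RNAi groups, 121 pseudogenes were lower (21.2%). In the lowest of 5 equal classes by level, 5 of 282 pseudogenes fell (1.77%), against 1.63% of protein-coding genes. Between 3.39 and 20.1 CPM 29 of 105 pseudogenes fell (27.6%), against 2.83% of protein-coding genes at that level. WBGene00007165 had 8.39, 8.01 and 10.2 CPM in F25H2.5 and 18.6, 17.3 and 19 CPM in L4440_RM, a log2 fold change of -1.04 ± 0.10 (edgeR, adjusted p = 3.91e-05) with no overlap. Pseudogene falls numbered 23 to 46 with 1 library left out. Pseudogenes resemble the genes they came from and can share reads with them, so single values are uncertain.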

How the data were processed

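Counts per gene in whole-worm libraries were used as deposited by the authors, as whole numbers without scaling. Per the submitters' processing notes, bcl2fastq 1.8.4, STAR 2.4.1d, featureCounts 1.4.6-p4 and genome build WBcel235 were used. Per the labels' protocols the libraries came from a TruSeq v2 kit, which does not mark strand. A deposited table of RPKM was not used. Totals per library ran from 31835911 to 44987307 counts, and 0 rows named no gene.

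The 15 RM libraries were fitted as 5 group means with edgeR 4.0.16 in R 4.3.3 (filterByExpr, trimmed-mean scaling factors of 0.962 to 1.11, robust quasi-likelihood test), which left 15795 genes, 10 residual degrees of freedom and a common biological coefficient of variation of 11.7%. The Benjamini-Hochberg adjustment ran over all genes tested, with a threshold of 0.05. SE is the log2 fold change over the square root of F. The script was tested on simulated data. Alternatives were other scaling, no filter, DESeq2 1.42.0, other sets of libraries, each library left out and a replicate block. Sequencing lane as a term, the 2 libraries that stood apart left out, and the split by chromosome were added after the data had been seen.

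Groups came from the perturbation label and the title prefix. Replicate numbers follow the order of titles, and the main fit treated the samples as unpaired. Deviations from the group means of same-numbered F25H2.5 and L4440_RM libraries correlated at -0.00, 0.03 and 0.20. With so few libraries these values cannot show whether samples were paired. Replicates of a group differed beyond sampling noise, with a chi-square per gene of 6.88 to 19.2.

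The comparison and the 51 gene lists were chosen with earlier results of these data known, and lists drawn up by name patterns were corrected after values had been seen, where patterns had taken in wrong names. Named genes were ndk-1, then the 12 largest rises, 12 largest falls and 8 smallest p-values of the rest among called genes without overlap and with a mean of at least 1 CPM, up to 4 members with the smallest p of each list with at least 2 called members, and tested neighbours of ndk-1. The text names a part of these, and other members of lists by their call. Further genes are said to have been picked after their values were seen, as were let-60, lin-45, mek-2, mpk-1, ksr-1, ksr-2, ced-10, dyn-1, rnr-1, hsp-60 and col-10. Gene symbols came from the annotation of build WBcel235.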

Additional observations from a re-analysis of the deposited data

How the results depend on the processing

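Against L4440_RM 1366 genes were called. Other fits called 2263 with the 6 libraries alone (794 rises and 502 falls shared), 2738 with all 30 libraries (830 and 525 shared) and 2309 with all 6 L4440 libraries as control (475 and 356 shared). Without replicate 3 of every RM group 748 were called, with 1 library left out 431 to 842, and with sequencing lane as a block 16. Against the other 3 RM RNAi groups 2385 genes were called, against 3606 with all 30 libraries, 1226 without replicate 3, 133 with the lane block and 1231 to 2921 with 1 library left out. The replicate block gave 1464 and 2449. Relative log expression factors gave 1072, DESeq2 1526 and no filter on low counts 1133 against L4440_RM. With all 6 L4440 libraries as control the log2 fold changes of spe-41 (0.05), rpl-38 (-0.06), alg-2 (-0.16) and sams-5 (0.00) no longer had their sign; the cause was not tested. ndk-1 passed in every fit. Of 189 named genes, 89 lost their call without F25H2.5 replicate 2 and 158 with the lane block. The lane block has fewer residual degrees of freedom and takes replicate 3 of F25H2.5 and of L4440_RM out of their comparison. Depth limits genes under about 1 CPM. Replicate origin is not stated.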

Other observations

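Nuclear hormone receptor genes, a large family of ligand-binding transcription factors in this worm, had 5 rises and 2 falls among 194 tested, with a median log2 fold change of 0.06. Over all genes tested 5.26% rose and 3.39% fell, and leaving out 1 library gave 2 to 4 rises of nuclear hormone receptor genes. nhr-13 averaged 24.1 ± 1.33 CPM in F25H2.5 and 16.6 ± 0.421 CPM in L4440_RM (SD, n = 3 each), a log2 fold change of 0.54 ± 0.08 (SE, edgeR, adjusted p = 7.08e-04), with no overlap. Small GTPases and G protein subunits had 7 rises and 1 fall among 73, among them ragc-1, a Rag GTPase of nutrient signalling, with 294, 312 and 293 CPM in F25H2.5 and 237, 230 and 235 CPM in L4440_RM (0.36 ± 0.06, edgeR, adjusted p = 0.00307).

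ldh-1, lactate dehydrogenase, had 62.8, 65.7 and 61.6 CPM in F25H2.5 and 82.7, 88.6 and 89.9 CPM in L4440_RM (-0.46 ± 0.07, edgeR, adjusted p = 0.0012), and averaged 229 CPM with F55H2.6 RNAi. The cytochrome P450 genes cyp-31A2 (0.41 ± 0.06) and cyp-31A3 (0.32 ± 0.06) rose together, and as near-identical copies they may share reads. Genes raised through DAF-16, the transcription factor of insulin signalling, had 4 rises among 34, where 5.26% of all genes tested rose. These were lys-7, dod-3, stdh-1 and dao-3. With 1 library left out 1 to 4 rose, and 1 rose without F25H2.5 replicate 2 or L4440_RM replicates 1 or 2. dao-3 passed in 5 of 17 other fits, and dod-3 did not pass against the other RNAi groups (0.42 ± 0.14, edgeR, adjusted p = 0.0523), while sod-3, another target of DAF-16, did not pass against L4440_RM (-0.04 ± 0.19).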
